A study of Mus musculus with 4 samples.

Results

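The NRF2 antioxidant genes examined here were 10 mouse genes: Nfe2l2, Keap1, Nqo1, Hmox1, Gclc, Gclm, Txnrd1, Srxn1, Slc7a11 and Prdx1. They were taken by name, as every non-control probe of the array that carried 1 of these gene names, which gave 12 probes for the 10 genes, of 55681 probes for 34816 genes in all. RNA was measured once, on 4 one-colour Agilent microarrays, in male mouse embryonic fibroblasts (MEFs) undergoing reprogramming to induced pluripotent stem cells. The cells came from pooled E13.5 embryos that carried an Oct4-EGFP transgene, in which a green fluorescent protein is driven by the Oct4 promoter and enhancer. All groups were transduced by retrovirus with Oct4, Sox2 and Klf4 (OSK), and the OSKA cells also received AKT-MER, a kinase fused to a modified estrogen receptor so that 4-hydroxytamoxifen (4OHT) switches it on. From 3 days after infection the cells received 4OHT or vehicle, and they were sampled at 8 days. The groups were therefore OSK − 4OHT, OSK + 4OHT, OSKA − 4OHT and OSKA + 4OHT, and AKT was activated by design in the last of these. Each group had 1 array, so no difference below has a replicate check, and no p-value is given. The sample title places the fourth array in the OSKA + 4OHT group and its free-text description says that AKT-MER was not active. The title was followed.

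NRF2, the product of Nfe2l2, is a transcription factor that turns on genes against oxidative and electrophilic stress. In unstressed cells the adaptor KEAP1 binds it and passes it to a ubiquitin ligase for degradation, so that its activity is set largely by protein stability rather than by the level of its own mRNA. When oxidants or electrophiles modify KEAP1, NRF2 accumulates, pairs with small MAF proteins and binds antioxidant response elements near genes for glutathione synthesis, thioredoxin recycling, quinone reduction and haem breakdown.

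The sequences just before the gene starts are shown because they let the measured differences be set beside the letters a regulator could read. Promoter sequences from RefSeq (GRCm38.p6) were available for 8 of the 10 genes, in 10 promoters since Txnrd1 has 3 starts, and Hmox1 and Gclc were not among them. Each was searched on both strands over the 250 bases before the start for the core of the antioxidant response element (TGACNNNGC), for the AP-1 site (TGAGTCA) and for a core of the amino acid response element that ATF4 binds (TGATGNAA). The 160 bases before the start are printed for the 6 genes on which the comparison turns, 5′ to 3′ on the strand of the gene, with every match in capitals.
Nqo1, chr8:107403206-107403365, minus strand: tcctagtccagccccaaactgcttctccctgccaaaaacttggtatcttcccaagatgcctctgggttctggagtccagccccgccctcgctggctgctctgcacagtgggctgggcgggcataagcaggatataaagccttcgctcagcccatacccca
Slc7a11, chr3:50443614-50443773, minus strand: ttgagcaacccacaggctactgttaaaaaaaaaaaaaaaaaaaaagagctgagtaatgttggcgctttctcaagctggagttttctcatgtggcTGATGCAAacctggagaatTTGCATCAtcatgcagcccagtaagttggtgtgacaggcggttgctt
Srxn1, chr2:152105364-152105523, plus strand: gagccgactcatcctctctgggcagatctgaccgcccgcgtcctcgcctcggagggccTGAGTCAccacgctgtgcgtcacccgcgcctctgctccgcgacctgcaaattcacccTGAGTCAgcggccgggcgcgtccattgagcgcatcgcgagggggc
Gclm, chr3:122245397-122245556, plus strand: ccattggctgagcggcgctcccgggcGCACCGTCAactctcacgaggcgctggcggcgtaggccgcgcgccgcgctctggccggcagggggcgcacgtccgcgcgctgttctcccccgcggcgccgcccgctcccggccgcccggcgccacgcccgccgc
Txnrd1 start 2, chr10:82859046-82859205, plus strand: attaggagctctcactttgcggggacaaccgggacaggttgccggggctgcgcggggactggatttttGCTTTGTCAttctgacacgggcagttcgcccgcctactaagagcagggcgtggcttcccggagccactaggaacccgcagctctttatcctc
Prdx1, chr4:116685439-116685598, plus strand: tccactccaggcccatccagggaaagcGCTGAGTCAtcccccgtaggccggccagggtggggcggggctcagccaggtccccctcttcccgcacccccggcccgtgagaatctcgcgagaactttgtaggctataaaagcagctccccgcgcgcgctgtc
The antioxidant response element core was matched in Nfe2l2, Gclm, Txnrd1 start 2 and Prdx1, that is in 4 of the 10 promoters, against 10.2% of 32851 promoters in the table. The AP-1 site was matched in Srxn1, at 102 to 96 and at 45 to 39 bases before the start, and in Prdx1, against 4.46% of all promoters. In Prdx1 the AP-1 match at 131 to 125 bases lies inside its antioxidant response element match at 133 to 125 bases, so both describe the same letters. A separate AP-1 match in Prdx1 lies on the opposite strand at 237 to 231 bases, outside the part printed. The amino acid response element core was matched in Slc7a11 alone among the members, on the same strand at 66 to 59 bases and on the opposite strand at 47 to 40 bases, against 3.45% of all promoters. Nqo1 and Keap1 held none of the 3 motifs in this window, which says only that these letters are not in it.

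**Figure D1:**
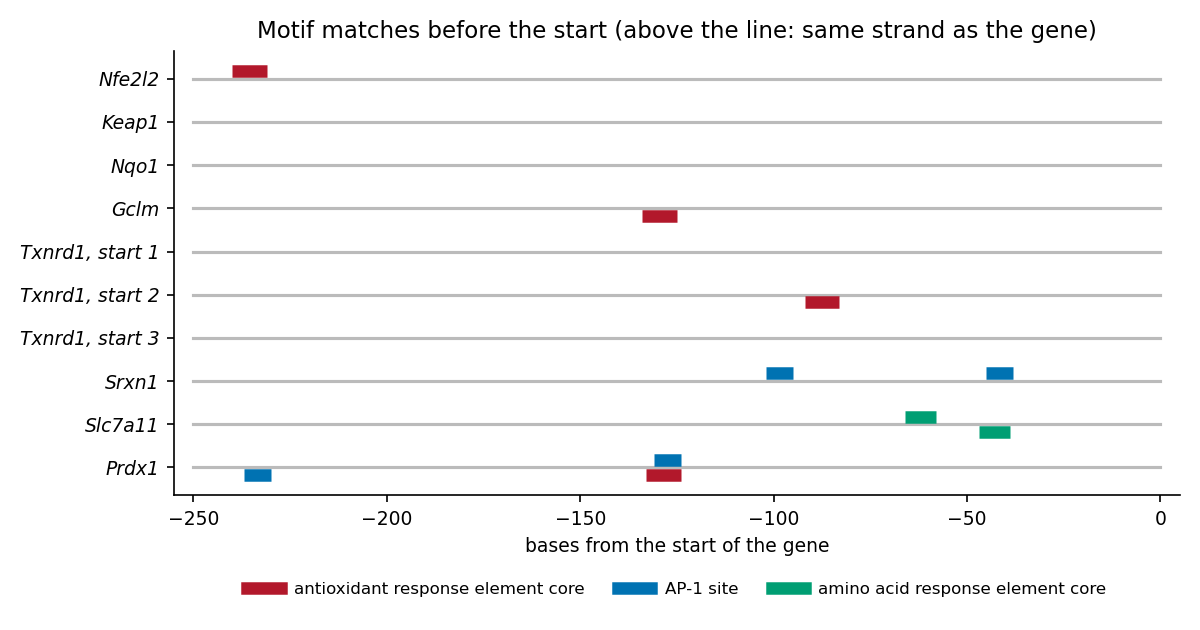
Matches of 3 motifs in the 250 bases before the gene start, for the 10 promoters of 8 members. The horizontal axis is the distance from the start in bases, grey lines are the promoters, and coloured blocks above or below a line are matches on the same or the opposite strand. Slc7a11 holds a pair of amino acid response element cores, Srxn1 a pair of AP-1 sites, and Nqo1 and Keap1 none.

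The arrays were comparable in quality. Between 52.4% and 55.4% of non-control spots were well above background, and no spot was saturated. Levels are given as log2 intensity relative to the 75th percentile of the same array, which lay between 377 and 462 intensity units. The error beside a difference is the one that the scanner software assigns to the spots, about 0.21 log2 for a typical gene. It covers the measurement of the spots and not the spread between cultures. Every one of the 12 member probes was well above background on all 4 arrays. A probe for Esr1, whose sequence AKT-MER can share, was not above background on either OSK array and stood at 3.11 and 3.32 on the OSKA arrays, which bears on the AKT-MER label but not on 4OHT.

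Of the 10 genes, Nqo1 and Slc7a11 were the ones at least 2-fold higher with 4OHT in OSKA cells, and Srxn1 followed with a smaller difference. The other 7 genes, among them Nfe2l2 and Keap1 themselves and both subunits of glutamate-cysteine ligase, differed by less than 0.15 log2, a band that held 42.9% of all genes. The 2 genes at least 2-fold higher compare with 2.01% of the 20300 genes measured, and none was at least 2-fold lower, against 0.901%. The median over the 10 genes was 0.04 log2, beside −0.03 over all genes. Of the 10 genes, 9 lay above 0, against 45.2% of all genes, and 3 of them exceeded the software error, against 18.6% of all genes. The other 7 of the 10 lay within that error, against 56.9% of all genes. The 1 gene below 0, Gclc, compares with 54.8% of all genes, and no member was lower by more than the error, against 24.4%.

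NQO1 is the quinone reductase that is widely used as an index of NRF2 activity. Its probe lies at chr8:109912440-109912499 (mm9, the build of the array annotation). The level of Nqo1 was 0.36 on the OSK − 4OHT array, 0.03 on OSK + 4OHT, 0.17 on OSKA − 4OHT and 1.55 on OSKA + 4OHT. The fourth array thus stood apart, and the other 3 lay within 0.34 log2 of each other. With 4OHT the level was 2.60-fold higher in OSKA cells (log2 difference 1.38, software error 0.20), whereas in OSK cells it was lower (−0.34, error 0.20). The difference of OSKA over OSK cells was 1.52 log2 in the presence of 4OHT, which is 2.88-fold, and −0.19 in its absence. Over the 7 other ways of processing the arrays, the difference with 4OHT in OSKA cells ranged from 1.27 to 1.40.

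Slc7a11 encodes the transporter subunit of system xc-, which imports cystine for glutathione synthesis, and it is known as a target of both NRF2 and ATF4. Its probe (chr3:50169700-50169759, mm9) was dim. The processed intensity was 47.0 on the OSK − 4OHT array, 19.1 on OSK + 4OHT, 31.0 on OSKA − 4OHT and 81.1 on OSKA + 4OHT, where the median of the negative control spots lay between 3.28 and 4.51. On the relative log2 scale these are −3.30, −4.30, −3.70 and −2.24. The highest value was again on the OSKA + 4OHT array, and the lowest was on OSK + 4OHT. With 4OHT the level was 2.75-fold higher in OSKA cells (1.46, error 0.26) and 2.0-fold lower in OSK cells (−1.003, error 0.38). Between the 4OHT arrays it was 4.17-fold higher with AKT-MER (2.06, error 0.36), and between the vehicle arrays it was lower (−0.40, error 0.29). The sizes depended on the processing of the dim spots. With normexp, an added offset of 50 intensity units and quantile normalization together, the differences kept their signs but were smaller in size. They were 0.65 in OSKA cells, −0.31 in OSK cells, 0.80 between the 4OHT arrays and −0.16 between the vehicle arrays, none of which is 2-fold. An offset of that size alone lowers the fold of a probe as dim as this one.

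Srxn1 encodes sulfiredoxin, which repairs overoxidised peroxiredoxins. Its level was 3.17 on both OSK arrays, 3.37 on OSKA − 4OHT and 3.75 on OSKA + 4OHT (probe at chr2:151937009-151937068, mm9). The 2 OSK arrays could not be separated on this scale, while the OSKA + 4OHT array was the highest. The difference with 4OHT was 0.38 in OSKA cells (1.30-fold, error 0.20) and 0.01 in OSK cells, and with AKT-MER it was 0.58 under 4OHT (1.49-fold) and 0.21 under vehicle. The last of these turned to −0.25 when the arrays were scaled on spike-in controls. The 0.01 in OSK cells then became −0.32, beyond its error of 0.20.

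**Figure D2:**
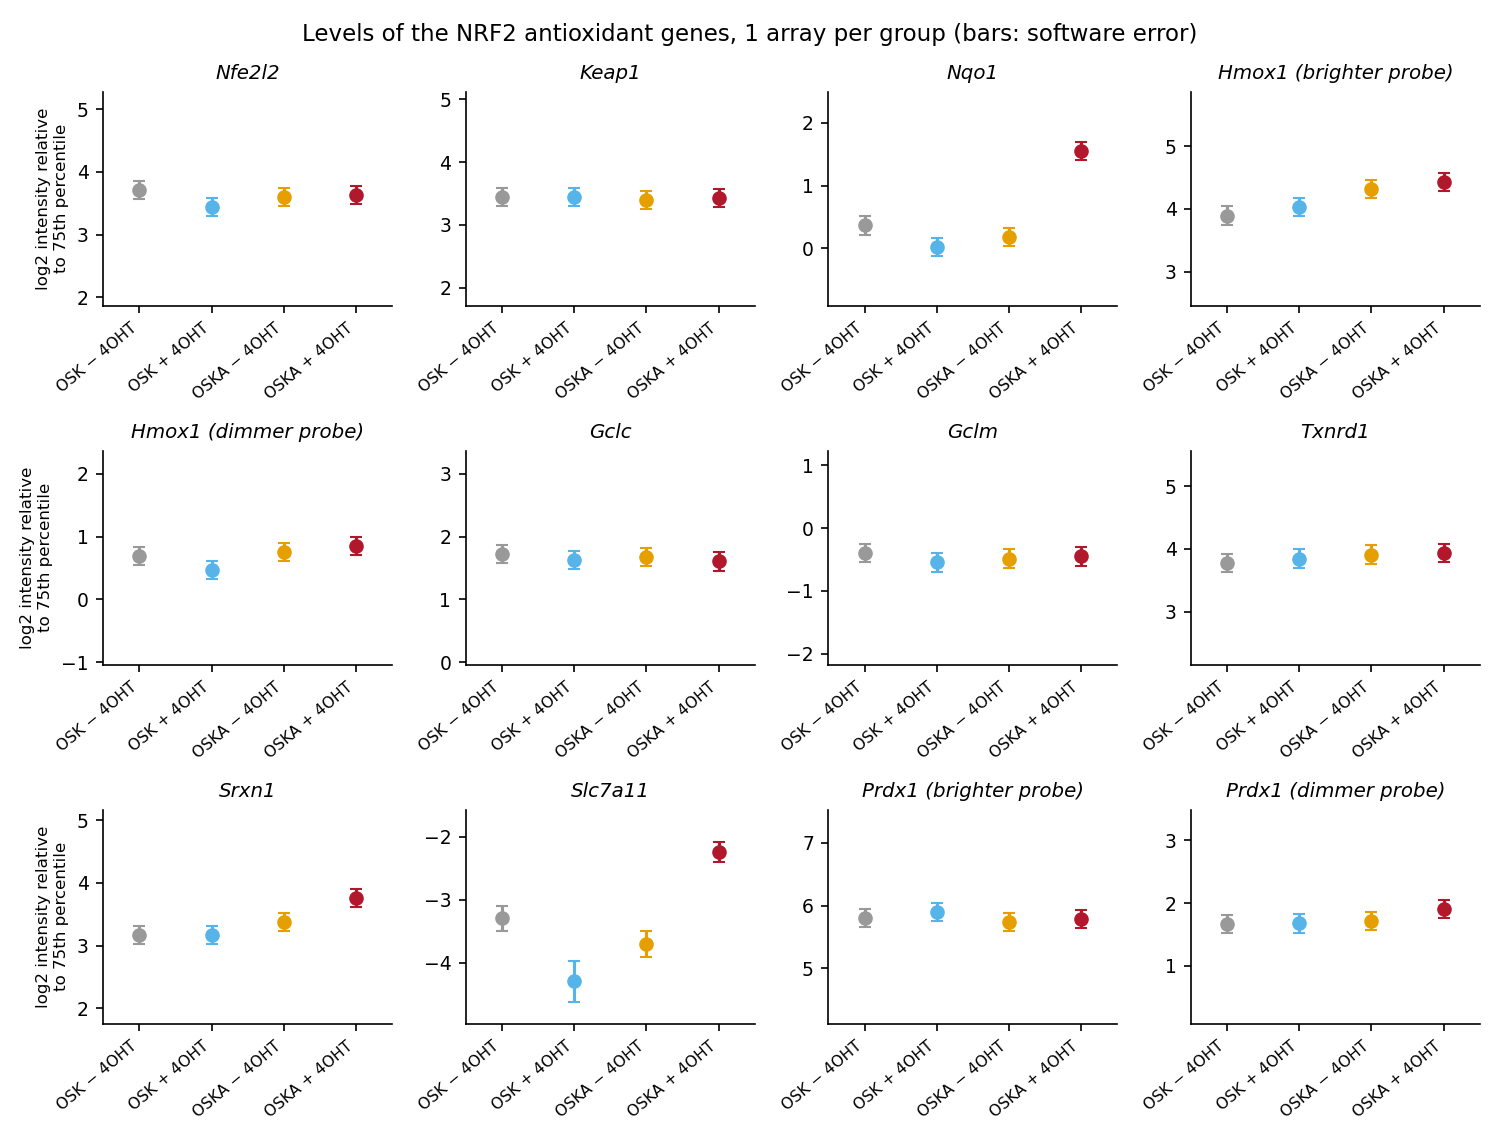
Level of each of the 12 member probes on the 4 arrays, 1 point per array, as log2 intensity relative to the 75th percentile, with bars for the software error of the spot. All panels span the same number of log2 units. Nqo1, Srxn1 and Slc7a11 stand highest on the OSKA + 4OHT array, and most other panels are close to flat.

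The mRNAs of the sensor and of the factor itself differed little on the scale used here. The level of Nfe2l2 was 3.71 on OSK − 4OHT, 3.44 on OSK + 4OHT, 3.59 on OSKA − 4OHT and 3.63 on OSKA + 4OHT (probe at chr2:75513771-75513830, mm9). Its difference with 4OHT was 0.04 in OSKA cells. In OSK cells it was −0.27, larger than the software error of 0.20. Keap1 spanned only 0.05 log2 over the 4 arrays on this scale, at 3.44, 3.44, 3.39 and 3.43 in the same order (probe listed at chr9:21035292-21035732, mm9). Spike-in scaling, which shifts all genes, gave −0.32 for Keap1 and −0.59 for Nfe2l2 with 4OHT in OSK cells. With AKT-MER under vehicle it gave −0.51 for Keap1 and −0.57 for Nfe2l2, and all these values exceeded the error.

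The rate-limiting enzyme of glutathione synthesis, glutamate-cysteine ligase, is made of a catalytic subunit, Gclc, and a modifier subunit, Gclm. Gclc stood at 1.72, 1.63, 1.67 and 1.60 on OSK − 4OHT, OSK + 4OHT, OSKA − 4OHT and OSKA + 4OHT, respectively. Gclm stood at −0.40, −0.54, −0.48 and −0.45 in the same order. The Gclc probe lies at chr9:77641296-77641355, and that of Gclm is listed over 2636 bases at chr3:121962174-121964809 (mm9), longer than the probe itself. With 4OHT in OSKA cells the differences were −0.07 for Gclc and 0.03 for Gclm. All 4 differences of each subunit were smaller than the software error on the scale used here. Under spike-in scaling, which shifts all genes, those with 4OHT in OSK cells were −0.41 for Gclc and −0.47 for Gclm. Those with AKT-MER under vehicle were then −0.51 and −0.55, all beyond the error. Differences of the size seen for Slc7a11, whose product supplies cystine for the same pathway, were not seen for either subunit.

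In the thioredoxin branch, Txnrd1 encodes the cytosolic thioredoxin reductase and Prdx1 a peroxiredoxin that reduces peroxides with thioredoxin. Txnrd1 stood at 3.78, 3.85, 3.91 and 3.94 on OSK − 4OHT, OSK + 4OHT, OSKA − 4OHT and OSKA + 4OHT, a difference of 0.03 with 4OHT in OSKA cells. Prdx1 had a pair of probes, and the brighter stood at 5.81, 5.90, 5.74 and 5.78. The dimmer Prdx1 probe stood at 1.66, 1.68, 1.71 and 1.90. The probes lie at chr10:82360230-82360289 for Txnrd1 and at chr4:116371818-116371877 and chr4:116372422-116372481 for the brighter and dimmer probe of Prdx1 (mm9). Both probes were higher with 4OHT in OSKA cells (0.04 and 0.19), but they differed in sign for AKT-MER, at −0.12 and 0.23 with 4OHT and at −0.07 and 0.05 without it. No direction is given for Prdx1 in those comparisons.

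Hmox1 encodes the inducible haem oxygenase, which breaks down haem. Its brighter probe (chr8:77624207-77624266, mm9) stood at 3.90 on OSK − 4OHT, 4.03 on OSK + 4OHT, 4.31 on OSKA − 4OHT and 4.43 on OSKA + 4OHT. Both OSKA arrays thus lay above both OSK arrays, and the differences with 4OHT were 0.13 in OSK and 0.12 in OSKA cells, within the error. For 4OHT in OSK cells the dimmer probe gave −0.22, and spike-in scaling gave −0.19 for the brighter one, so no direction is given there. The differences with AKT-MER were 0.42 without 4OHT and 0.40 with it, each about 1.3 times the lower level, with an error of 0.20. The dimmer probe (chr8:77620797-77620856, mm9) gave 0.38 with 4OHT but only 0.07 without it, and spike-in scaling turned the 0.42 of the brighter probe to −0.05. The AKT-MER difference of Hmox1 without 4OHT therefore has no settled direction. Hmox1 is abundant in macrophages, and the 7 macrophage markers (Ptprc, Cd68, Adgre1, Cd14, Lyz2, Csf1r and Itgam) were all well above background on all 4 arrays. Their summed relative intensity was 161 on OSK − 4OHT, 217 on OSK + 4OHT, 216 on OSKA − 4OHT and 189 on OSKA + 4OHT. It was higher with AKT-MER under vehicle and lower with AKT-MER under 4OHT, where both Hmox1 probes were higher. Its part in the Hmox1 values was not tested.

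**Figure D3:**
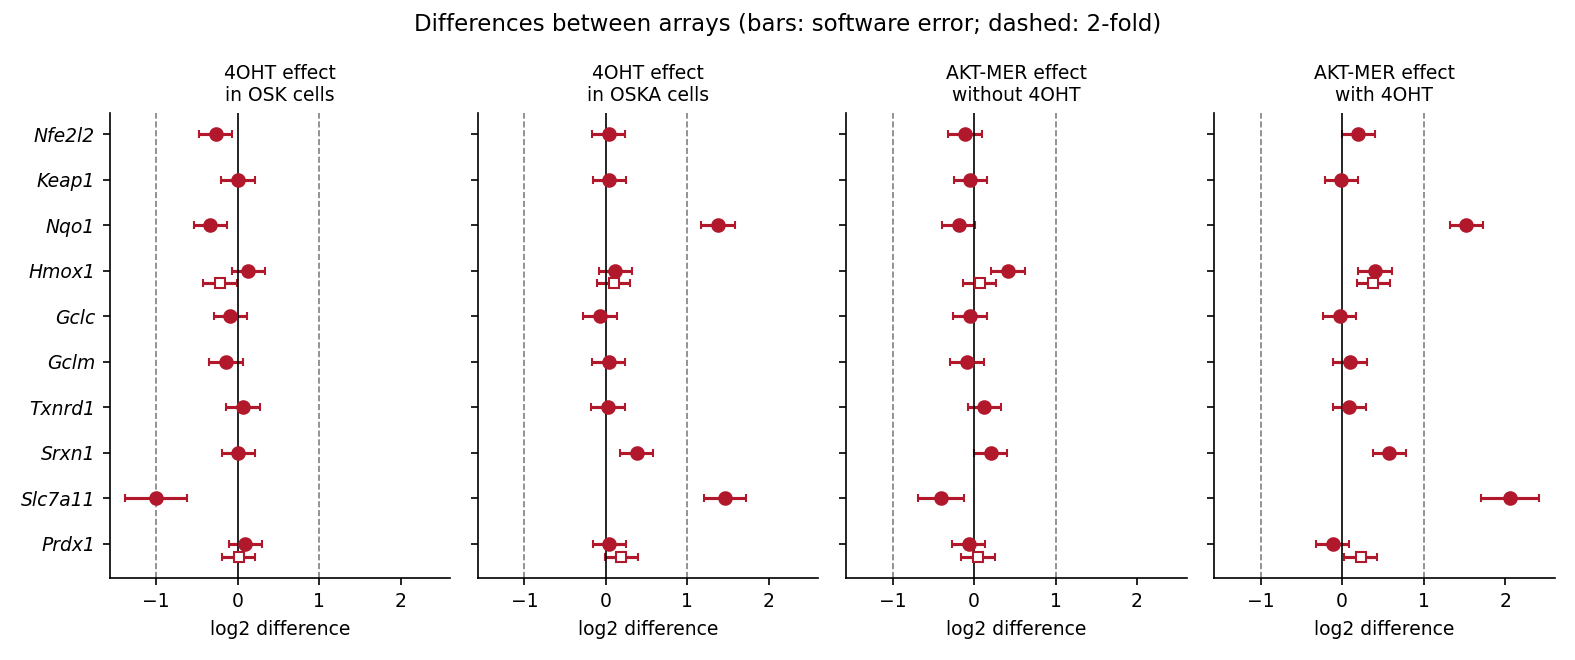
The 4 differences between arrays for each member, in log2 units on the horizontal axis, with bars for the software error and dashed lines at a 2-fold difference. Filled circles are the brighter probe of a gene and open squares the dimmer probe of Hmox1 and Prdx1. Nqo1 and Slc7a11 lie beyond the 2-fold line in the panels of 4OHT in OSKA cells and of AKT-MER with 4OHT. Under spike-in scaling all 10 members lie below 0 with 4OHT in OSK cells and with AKT-MER but no 4OHT. That scaling shifts the median of all genes by −0.32 and −0.46 in these comparisons, so the count is not particular to the members.

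Of the other 3 comparisons, AKT-MER with 4OHT had as many members beyond 2-fold as 4OHT in OSKA cells, and the rest had fewer. For 4OHT in OSK cells, which carry no AKT-MER and serve as the control for the ligand itself, 1 of the 10 genes was at least 2-fold lower, Slc7a11, against 0.277% of 19861 genes, and none was at least 2-fold higher, against 0.609%. Of the 10 genes, 5 were higher and 5 lower (49.4% and 50.6% of all genes), with a median of −0.04 beside −0.00 over all genes. For AKT-MER without 4OHT no member passed 2-fold in either direction, against 1.09% of 20183 genes higher and 0.931% lower. Here 7 of the 10 were lower, against 53.0% of all genes, and the median was −0.06 beside −0.02. For AKT-MER with 4OHT, Nqo1 and Slc7a11 were again at least 2-fold higher, against 1.92% of 19846 genes, and none was at least 2-fold lower, against 1.12%. The median in that comparison was 0.15 beside −0.05, and 7 of the 10 genes were higher, against 42.9%, and 3 were lower, against 57.1%. The AKT-MER comparisons use the same arrays as the 4OHT comparisons, so their values are not separate evidence. A threshold of 1.5-fold counted the same genes as 2-fold in all 4 comparisons. Its background was 4.33% of genes higher and 1.63% lower for 4OHT in OSK cells, 5.06% and 4.63% for 4OHT in OSKA cells, 5.66% and 3.99% for AKT-MER without 4OHT and 5.46% and 5.1% for AKT-MER with it.

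Scaling on the spike-in controls moved the median of all genes by −0.32 log2 for 4OHT in OSK cells, by −0.46 for AKT-MER without 4OHT and by −0.13 for AKT-MER with 4OHT, but by only 0.01 for 4OHT in OSKA cells. Under that scaling all 10 genes were lower in the first 2 of these comparisons, where the median of all genes was −0.33 and −0.48. In the third, Gclm and Txnrd1 turned from 0.09 and 0.09 to −0.03 and −0.04. The counts for 4OHT in OSKA cells stayed at 9 higher and 1 lower.

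The difference between the 4OHT effects in the OSKA and OSK cells, which share no array, was 2.46 log2 for Slc7a11 (error 0.46) and 1.71 for Nqo1 (error 0.29). Both genes were lower with 4OHT in OSK cells and higher in OSKA cells. These 2 of the 10 genes passed 2-fold upwards, against 2.61% of 19540 genes, and none passed it downwards, against 2.67%. After normexp with quantile normalization the difference was 1.53 for Nqo1 but 0.96 for Slc7a11, which is under 2-fold. Next came Srxn1 with 0.37 and Nfe2l2 with 0.31, close to the error of 0.29. The remaining 6 genes lay between −0.05 and 0.18 by their brighter probe, and the dimmer probe of Hmox1 gave 0.31. The median of the 10 was 0.11 beside −0.04 over all genes. Spike-in scaling raised every one of these differences by the same amount, so that the 6 genes lay between 0.29 and 0.52, Nfe2l2 at 0.64 and Srxn1 at 0.71.

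**Figure D4:**
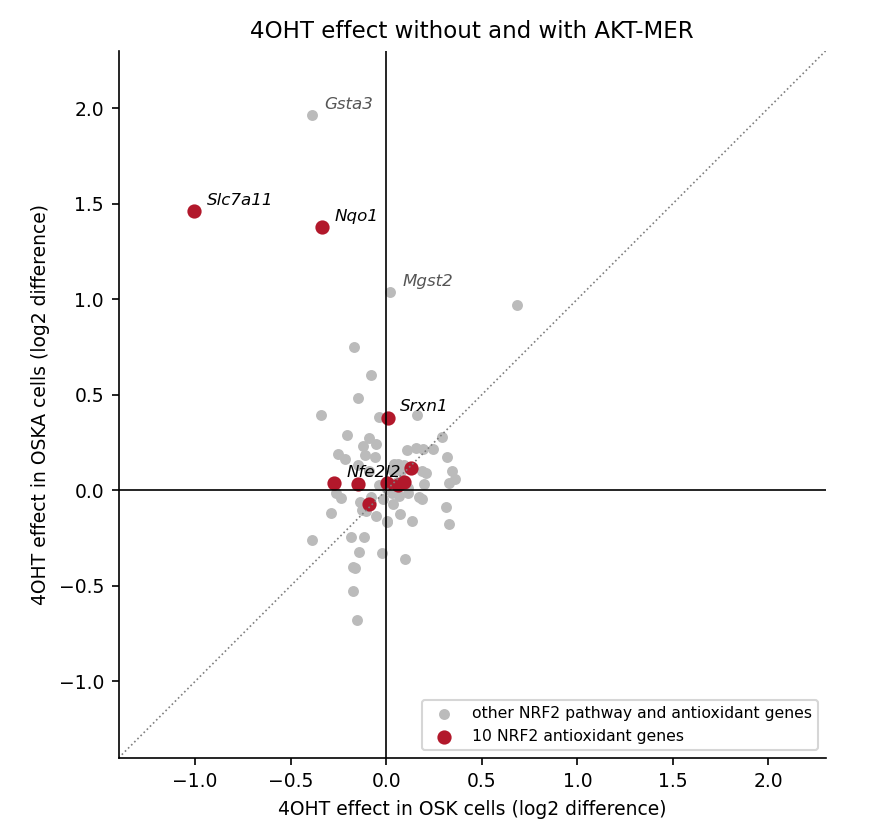
The 4OHT effect in OSK cells (horizontal axis) against the 4OHT effect in OSKA cells (vertical axis), both in log2 units, for the 10 NRF2 antioxidant genes (red) and 73 other genes of the pathway and of antioxidant defence (grey). The dotted line marks equal effects. Slc7a11, Nqo1 and Gsta3 lie in the upper left, lower with 4OHT in OSK cells and higher in OSKA cells, and most genes lie near the origin. Spike-in scaling would move all points left by 0.32.

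Over the 4 arrays the range between the highest and the lowest level had a median of 0.22 log2 for the 10 genes and of 0.36 for all 19540 genes measured throughout. A range of 1 log2 or more was seen in 2 members, Nqo1 and Slc7a11, and in 6.89% of all genes. The OSKA + 4OHT array held the highest level for 5 of the 10 genes and for 27.3% of all genes.

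The matches described at the start can be set beside the differences with 4OHT in OSKA cells. The genes with an antioxidant response element core in the window gave 0.04 for Nfe2l2, 0.03 for Gclm, 0.03 for Txnrd1 and 0.04 for Prdx1. Srxn1, with the pair of AP-1 sites, gave 0.38, while Prdx1 also held AP-1 matches. The Srxn1 site nearer the start is followed by the letters GC. It thus differs from the antioxidant response element core searched only by a G in place of the C. The matches therefore do not sort the genes into those with and without such an element. With no match there, Nqo1 gave 1.38 and Keap1 0.04, and Slc7a11, with the pair of amino acid response element cores, gave 1.46. The window leaves out elements farther from the start.

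The genes whose profile over the 4 arrays lay nearest to that of Nqo1, among 14276 genes, were Negr1, Tspan12 and Gap43, with root mean square distances of 0.03, 0.05 and 0.06 log2 after each gene was centred on its own mean. In all, 173 genes lay within 0.25 log2 of it. The nearest to Slc7a11 were Tox3 (0.08), Cpm (0.12) and Lypd1 (0.12), and 21 genes lay within 0.25 log2. With 4 arrays such likeness is a description only.

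The wider pathway was examined through 73 other genes in 6 lists, all of them measured. With 4OHT in OSKA cells, 42 of the 73 were higher and 31 lower, beside 45.2% and 54.8% of all genes, and their median was 0.04. At least 2-fold higher were 2 of the 73, a share close to the 2.01% of all genes. Both belong to the 19 genes of glutathione synthesis and use, of which 12 were higher (median 0.13). In the same list 14 of the 19 were lower with 4OHT in OSK cells (median −0.14, beside 50.6% of all genes lower) and 14 with AKT-MER under vehicle (median −0.11, beside 53.0%), and 10 were lower with AKT-MER under 4OHT (beside 57.1%). Gsta3, a glutathione transferase of the alpha class and a known NRF2 target, stood at 1.39 on OSK − 4OHT, 1.01 on OSK + 4OHT, 0.32 on OSKA − 4OHT and 2.28 on OSKA + 4OHT. It was 3.90-fold higher with 4OHT in OSKA cells (1.96, and 1.99 by its other probe) and lower with AKT-MER under vehicle (−1.08), so the vehicle OSKA array was its lowest. Mgst2, a microsomal glutathione transferase, stood at −1.69, −1.67, −1.80 and −0.76 in the same order and was 2.05-fold higher (1.04, error 0.21). The lowest of the list was Mgst3 at −0.41.

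Among the 17 genes of NADPH supply and detoxification, 14 were higher with 4OHT in OSKA cells and the median was 0.21. The share of all genes higher in this comparison, against which the counts of the lists are to be read, was 45.2%. The highest was Aldh1a1, a retinaldehyde dehydrogenase, at 0.97, and the lowest was Tkt, the transketolase of the pentose phosphate pathway, at −0.17. Aldh1a1 was also higher with 4OHT in OSK cells (0.68). Of the 13 regulators and partners of NRF2, 5 were higher and the median was −0.03, from −0.68 for Maff, a small MAF protein, to 0.39 for Sesn2, a stress-induced sestrin. The 11 genes of the thioredoxin and peroxiredoxin system had 5 higher and a median of −0.01, from −0.40 for Txnip, which binds and inhibits thioredoxin, to 0.14 for Prdx2. The 9 genes of iron and haem handling had 4 higher and a median of −0.04, from −0.17 for the ferritin heavy chain Fth1 to 0.18 for the constitutive haem oxygenase Hmox2. The 4 superoxide dismutases and catalase had 2 higher, from −0.33 for Sod3 to 0.18 for Sod2.

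Since Slc7a11 is also a target of ATF4, the factor of the amino acid response, 15 genes of that response were set beside it. With 4OHT in OSKA cells 14 of the 15 were higher, beside 45.2% of all genes, and their median was 0.28. The highest was Ddit4, an inhibitor of mTORC1, at 0.87, and the lowest was Atf3 at −0.18. With AKT-MER under vehicle 11 of the 15 were higher, beside 47.0% of all genes, and the median was 0.49. That comparison shifts by −0.46 when scaled on the spike-in controls. Of the 15, 1 was at least 2-fold higher, beside 1.09% of all genes, and 4 were lower, down to −0.82 for Cth. Slc7a11 was at −0.40 there, but at −0.16 after normexp with quantile normalization, within its error of 0.29. With AKT-MER under 4OHT 14 of the 15 were higher, beside 42.9% of all genes, and the median was 0.47. At least 2-fold higher were 3 of them, beside 1.92% of all genes. With 4OHT in OSK cells 8 of the 15 were higher, beside 49.4% of all genes, and the median was 0.02, where scaling on the spike-in controls shifts values by −0.32.

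**Figure D5:**
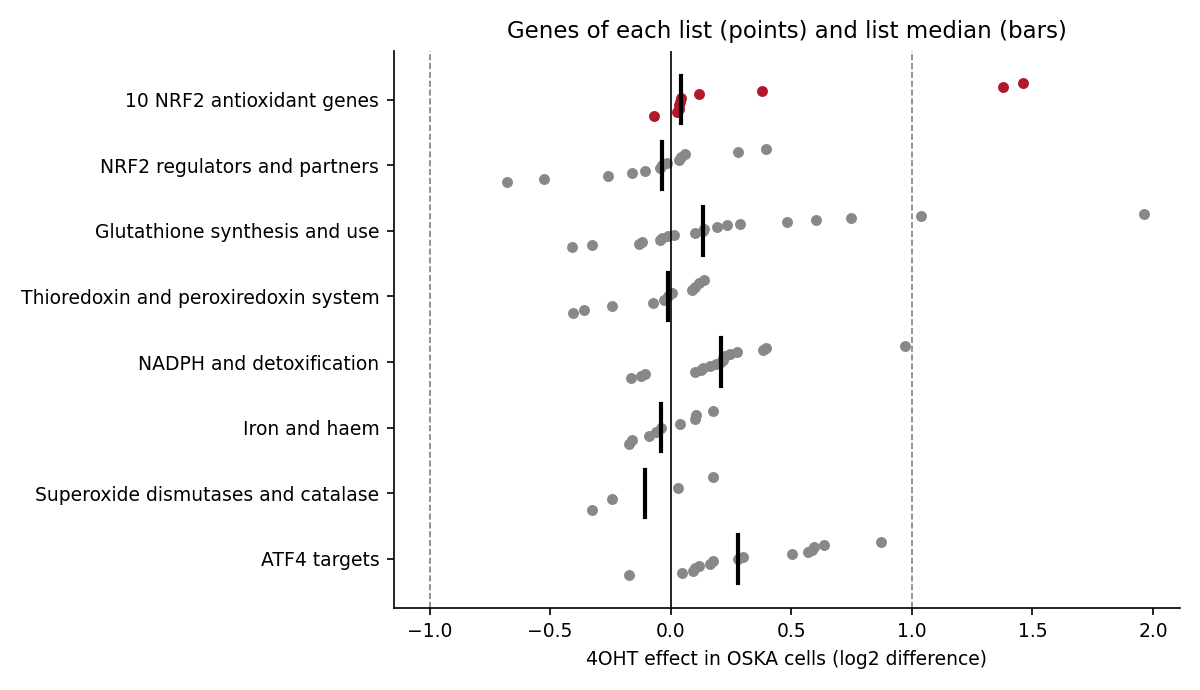
The 4OHT effect in OSKA cells, in log2 units, for each gene (points) of the 10 NRF2 antioxidant genes (red) and of 7 other lists (grey), with the median of each list as a black bar and dashed lines at a 2-fold difference. The largest value is Gsta3 at 1.96, and the list medians lie between −0.11 and 0.28.

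Because the arrays measured whole cultures, a lower level cannot be told apart from fewer cells that make the RNA. All 9 fibroblast markers were well above background on every array, with a summed relative intensity of 1564 on OSK − 4OHT, 1634 on OSK + 4OHT, 1792 on OSKA − 4OHT and 1879 on OSKA + 4OHT, so the defining markers of the labelled cell type were present. Single markers went either way with 4OHT in OSKA cells, as Lum went from 5.03 to 6.16 and Pdgfrb from 3.03 to 2.35. The macrophage sum, given with Hmox1, lay between 161 and 217 and was lower on the OSKA + 4OHT array than on OSKA − 4OHT, where Nqo1 and Slc7a11 were higher. The 5 epithelial markers were all above background and summed to 14.4, 11.8, 9.19 and 6.57 on OSK − 4OHT, OSK + 4OHT, OSKA − 4OHT and OSKA + 4OHT, respectively. Most of that sum came from Krt19, which went from 2.84 on OSKA − 4OHT to 1.88 on OSKA + 4OHT, while Krt8 went from −0.01 to 0.55 and Krt18 from −0.81 to 0.05. Of the 5 endothelial markers, 3 were above background, without Cdh5 and Emcn, and their sums lay between 8.04 and 11.9. The neural markers summed to between 6.47 and 6.63. The part of these cells in the member values was not tested.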

How the data were processed

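RNA (100 ng per sample) was labelled with Cy3 and hybridised to 1 slide of Agilent 60-mer arrays, 1 array per group. Per the file headers, the authors extracted the deposited intensity values with Agilent Feature Extraction 10.7.3.1, which subtracted background and detrended each array. No normalization between arrays had been applied, and the deposited value table of the series held the same intensity values, rounded. Position on the slide and group cannot be told apart.

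Control spots and spots flagged as outliers (104 to 155 per array) were left out. Each value was log2 of the processed intensity minus the 75th percentile of its array, and a gene entered a comparison where its probe was well above background on both arrays. The brightest probe stood for a gene, and other probes are given beside it. Probes of the array were named through RefSeq accessions where these matched (27509 probes) and otherwise by the array name. Probe coordinates are those of the array annotation (mm9), and the exon or UTR in which a probe lies was not analysed here.

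Groups followed the sample titles. Differences were described with the error from the software, without a test. Probes spotted 10 times on an array had a median SD between 0.059 and 0.068 log2. Precision is limited by the number of arrays.

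The members and all gene lists were chosen with earlier results of these data known. Named genes were all members, genes of each list at least 2-fold different with 4OHT in OSKA cells or else its highest and lowest gene, and the 3 nearest profiles of members with a range of at least 1 log2. Mgst3, Cth, the other values of Aldh1a1 and the single fibroblast and epithelial markers were added after their values were seen. A further list of markers is not reported here. Alternatives were quantile normalization, normexp (offset 50, limma 3.58.1, R 4.3.3), spike-in and median scaling, no filter on dim probes, the mean of all probes, the deposited value table and a 1.5-fold threshold. The calculations used Python 3.11.15, numpy 2.4.6 and pandas 2.3.3, and were tested on simulated data.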

Additional observations from a re-analysis of the deposited data

Results flagged for a closer look

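Nqo1 and Slc7a11 moved in opposite directions with 4OHT in the OSK and the OSKA cells, each beyond the software error as processed here. For Nqo1 the effects were −0.34 and 1.38 log2, which differ by 1.71. For Slc7a11 they were −1.003 and 1.46, which differ by 2.46. After normexp with quantile normalization the Slc7a11 effects were −0.31, within its error of 0.38, and 0.65, which differ by 0.96. With 1 array per group this difference was not tested.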

How the results depend on the processing

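The 40 differences of the 10 genes were recomputed in 7 other ways. Of the 280 values, 258 moved by less than the software error and 22 by more, 19 of them under spike-in scaling and 3 under normexp with quantile normalization. Spike-in scaling moved the median of the 10 genes to −0.37 for 4OHT in OSK cells, to −0.52 for AKT-MER without 4OHT and to 0.44 for the difference between the 4OHT effects. With normexp, the genes at least 2-fold lower with 4OHT in OSK cells went from 1 to 0, and those at least 2-fold higher from 2 to 1 both for 4OHT in OSKA cells and for AKT-MER with 4OHT. In each case the gene lost was Slc7a11, and in the last pair of comparisons Nqo1 remained. The 1.5-fold threshold gave the same counts of members as 2-fold.

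Over all genes, the number at least 2-fold higher and lower also depended on these choices. For 4OHT in OSKA cells it was 408 and 183, against 170 and 33 with normexp and 1881 and 1455 without the filter on dim probes. For 4OHT in OSK cells it was 121 and 55, against 21 and 8 with normexp, 32 and 200 under spike-in scaling and 1270 and 1207 without the filter. For AKT-MER without 4OHT it was 219 and 188, against 35 and 40, 39 and 977, and 1469 and 1523. For AKT-MER with 4OHT it was 381 and 222, against 183 and 62, 299 and 333, and 1705 and 1441. No paired analysis was possible because each group had 1 array. Slc7a11 was dim, so its fold is bounded by signal over background rather than by the number of arrays alone.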
